A study of Mus musculus with 3 samples.

Results

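The transcripts of 9 enzymes that write or clear histone marks for active transcription were examined in YTHDF2 RNA immunoprecipitation sequencing (RIP-seq) libraries of mouse embryonic stem cells (ESCs). They were taken by symbol from the deposited table, which held 49997 genes, and all 9 passed the filter on low counts that left 19601 genes for testing. The 9 were Kmt2a, Kmt2b, Kmt2c, Kmt2d, Setd1a, Setd1b, Crebbp, Ep300 and Kdm6b, chosen as chromatin activators whose transcripts have been reported to carry N6-methyladenosine (m6A). In RIP-seq, RNA that comes down with a protein is sequenced and set beside the RNA of an input library. YTHDF2 is a cytoplasmic protein that binds m6A in mRNA and promotes its decay. The series held 1 input library and 2 YTHDF2 immunoprecipitation (IP) libraries. All were from E14 ESCs kept with leukemia inhibitory factor and treated with doxycycline (Dox) for 24 h. In the cell system of the study Dox switches on a Dux transgene, which brings part of the ESCs into a condition like that of the 2-cell (2C) embryo, and the line also carries a tdTomato reporter driven by the MERVL promoter. Only a fraction of such a culture takes up that state, and counts from bulk cells cannot tell fewer cells from less RNA per cell. An untreated culture and an IP with a control antibody were not analysed here, and m6A itself was not measured in these libraries.

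Methylation of lysine 4 of histone H3 (H3K4) marks promoters and enhancers of active genes. In mammals it is written by a family of large SET domain enzymes that work in complexes called COMPASS. KMT2A and KMT2B act mostly at promoters of developmental genes, KMT2C and KMT2D place monomethylation at enhancers, and SETD1A and SETD1B provide most of the trimethylation at promoters. CREBBP (CBP) and EP300 (p300) are paired acetyltransferases that acetylate lysine 27 of histone H3 (H3K27) at enhancers. KDM6B (JMJD3) removes methyl groups from H3K27, the mark laid down by Polycomb, and so acts on the same side as the writers above.

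The input held 36986994 counts in total, against 35259827 and 35888743 for IP replicates 1 and 2. Markers of ESCs were abundant, with all 10 between 9650 and 66790 counts in the input, and 2C markers were between 572 and 31055. Summed CPM (counts scaled to the library total) of the 2C markers was 1714 at input against 2827 and 2817 after IP. For the ESC markers it was 9102 at input against 9615 and 9575 after IP. Of 6 fibroblast markers, Col3a1 was at 0 in every library, while Thy1 reached 994 counts in the input. Summed CPM of the 6 fibroblast markers was 35.9 at input against 37.2 and 34.4 after IP. Within this sum Thy1 fell from 26.9 CPM to 14.1 and 15.1, while Pdgfrb rose from 6.79 CPM to 21.2 and 17.4. The 5 primitive endoderm markers summed to 17.3, 22.3 and 18.3 CPM, and the 6 markers of mesoderm and neural precursors to 43.4, 97.9 and 91.8 CPM. The part of such cells in the values below was not tested. Because the input had no replicate, the error of every comparison comes from how the 2 IP libraries differ. The labels do not state that these came from separate cultures, so p-values may reflect technical spread alone.

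None of the 9 transcripts was strongly enriched or strongly depleted by YTHDF2 IP, yet 8 of the 9 differed from the unreplicated input by more than the spread between the 2 IP libraries. With a dispersion fixed at 0.1 in place of that spread, 0 of the 9 passed (edgeR likelihood ratio test, adjusted p of at least 0.333). Kmt2b, Kdm6b and Crebbp were higher in IP by between 1.44-fold and 1.55-fold, of which only the Crebbp call held when the trend of fold change with GC content was removed. Kmt2c, Ep300, Kmt2a, Kmt2d and Setd1b were lower in IP by between 1.23-fold and 1.73-fold. For Setd1a the input lay between the 2 IP libraries. With both a change of more than 2-fold and an adjusted p below 0.05 asked for, in the quasi-likelihood test of edgeR, 0 of the 9 were enriched, where 15% of all tested genes were, and 0 were depleted, where 13% of all tested genes were. At an unadjusted p-value under 0.05 the number past 2-fold was also 0, and it was 0 with DESeq2. Without the demand on fold, 3 of the 9 were higher, compared with 28.4% of all tested genes, and 5 of the 9 were lower, compared with 28.9%. In either direction that made 8 of 9, beside 57.2% of all tested genes. The 9 had between 790 and 5549 counts per library, and a well counted gene passes this test more readily. In a fit on the 12620 genes whose counts averaged 100 or more, 77.8% passed in either direction, and again 3 of the 9 were higher and 5 lower, so that 8 of 9 is near the share of well counted genes.

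**Figure D1:**
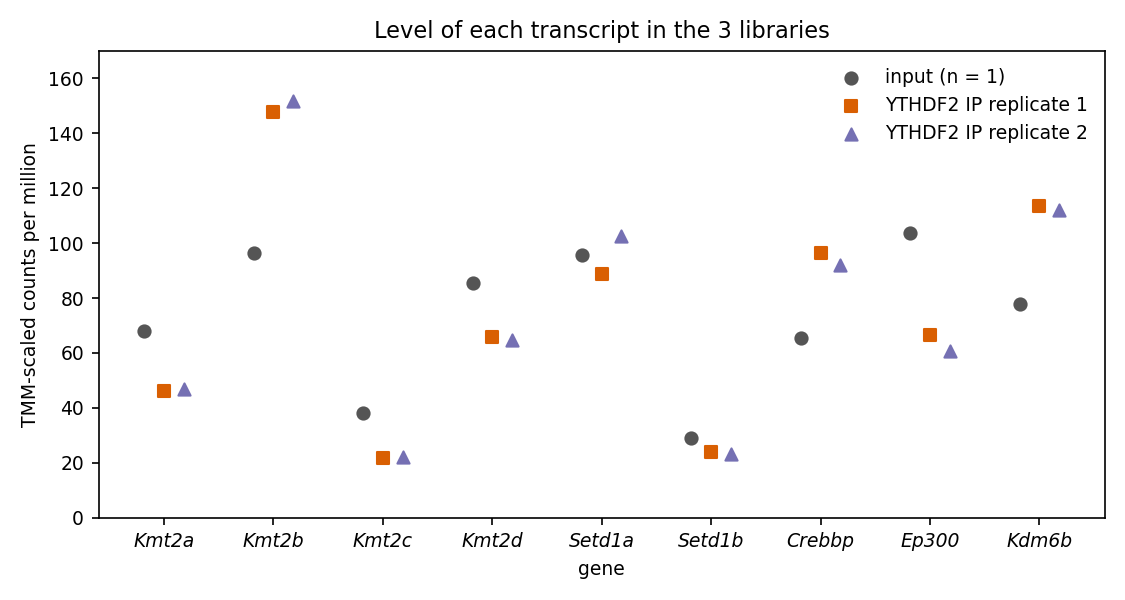
Level of each of the 9 transcripts in TMM-scaled CPM (vertical axis, from 0), with 1 point per library. Kmt2b rises from 96.5 at input to 148 and 152 after IP, whereas Ep300 falls from 104 to 66.6 and 60.6, and the 3 points of Setd1a lie together.

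The median log2 fold change of the 9 was −0.30 and their mean −0.12, beside a median of 0.0063 over all tested genes. On the TMM scale of these fold changes, the 9 summed to 660 CPM at input against 671 and 676 after IP. As a share of raw library totals, which leave out the TMM factors, the difference was larger. Together they took 0.0631% of all counts in the input (95% Wilson interval 0.0620 to 0.0643), 0.0686% in IP replicate 1 (0.0674 to 0.0699) and 0.0690% in IP replicate 2 (0.0678 to 0.0702). These intervals were taken on halved counts, since both mates of a read pair were counted, and cover counting error only. The lower and upper quartiles of all tested genes were −0.72 and 0.81 on the log2 scale, and Kmt2c was the only one of the 9 outside them.

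Among the promoter-type methyltransferases KMT2A and KMT2B, the transcripts parted in opposite directions. Kmt2b (chr7:30568855-30589056, minus strand, mm10) was counted 3412 times at input against 5330 and 5549 times after IP (replicates 1 and 2). Both IP libraries were above the input, and their log2 ratios to it were 0.61 and 0.65. The model gave a log2 fold change of 0.63 ± 0.068 (SE; edgeR adjusted p = 2.23e-10). With the GC trend removed it was 0.056, and the call was lost (adjusted p = 0.502). Kmt2a (chr9:44803355-44881352, minus strand), the gene behind the MLL fusions of leukemia, was counted 2405 times at input against 1665 and 1722 times after IP. Both IP values were below the input and close to each other, with log2 ratios of −0.56 and −0.53. Its fitted value was −0.55 ± 0.089 (SE), with adjusted p = 1.52e-06.

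Both enhancer methyltransferase transcripts were lower in IP. Kmt2c (chr5:25271795-25498855, minus strand) fell from an input count of 1355 to IP counts of 790 and 816. This was the lowest fold change of the 9, at −0.79 ± 0.11 (SE) on the log2 scale with edgeR adjusted p = 1.50e-07, and 23.0% of all tested genes lay at or below it. Kmt2d (chr15:98831669-98874077, minus strand), the gene mutated in most Kabuki syndrome, fell from 3026 counts to 2370 and 2371. Its log2 ratios were −0.38 and −0.40, and the fitted value was −0.39 ± 0.078 (SE) with adjusted p = 3.76e-05.

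The SETD1 pair gave the values nearest to the input in the reported fit. With the GC trend removed this was no longer so, with Setd1a at −0.36 and Setd1b at −0.84 on the log2 scale. Kmt2b, at 0.056, and Kdm6b, at −0.061, were then the nearest. Setd1a (chr7:127777389-127800122, plus strand) was counted 3385 times at input against 3209 and 3759 times after IP. The IP libraries lay on either side of the input, with log2 ratios of −0.11 and 0.10, the widest gap between the 2 IP libraries among the 9. The fitted value was 0.0011 ± 0.079 (SE), with edgeR adjusted p = 0.992. Setd1b (chr5:123142040-123168630, plus strand) had the fewest input reads of the 9, 1027, against 869 and 846 after IP. Both were below the input, at log2 ratios of −0.27 and −0.33, and the fitted value of −0.30 ± 0.12 (SE) had adjusted p = 0.0314. That call was lost under 6 of the 12 alternatives with a test, among them DESeq2, where the adjusted p-value was 0.263.

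The acetyltransferase pair split as the KMT2A and KMT2B pair did. Crebbp (chr16:4081334-4213957, minus strand) rose from an input count of 2316 to IP counts of 3473 and 3376. The log2 ratios were 0.56 and 0.49, and the fitted value was 0.52 ± 0.077 (SE) with edgeR adjusted p = 2.47e-07. Ep300 (chr15:81586209-81652077, plus strand) fell from 3669 counts to 2404 and 2219. Both IP libraries were below the input, at −0.64 and −0.78, and the fitted value was −0.71 ± 0.077 (SE) with adjusted p = 4.77e-10. Kdm6b (chr11:69398508-69420367, minus strand), the H3K27 demethylase, was counted 2751 times at input against 4091 and 4102 times after IP. These gave the closest agreement between the IP libraries among the 9, at 0.54 and 0.53, with a fitted value of 0.53 ± 0.073 (SE) and adjusted p = 5.19e-08. With the GC trend removed it was −0.061 (edgeR adjusted p = 0.496), which ended the call and turned its sign.

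**Figure D2:**
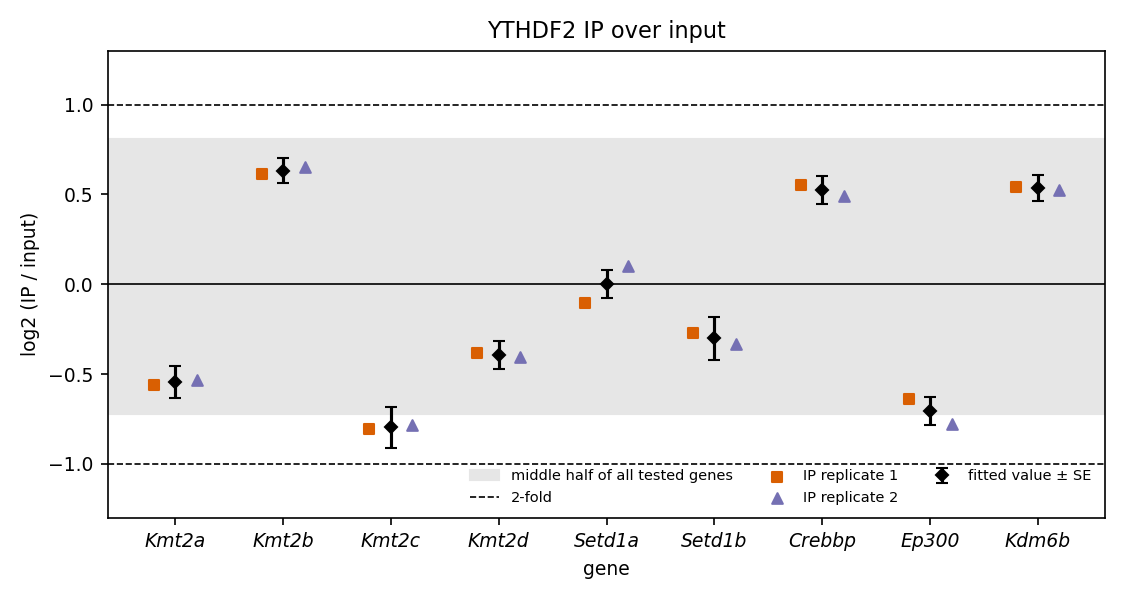
Log2 ratio of IP to input for each gene, as the fitted value with its SE (black) and as the ratio of each IP library alone (coloured points). The grey band runs from the lower to the upper quartile of all tested genes and the dashed lines mark 2-fold. Kmt2b, Crebbp and Kdm6b lie above 0 in both libraries, Setd1a lies on 0, the other 5 lie below 0 in both, and none reaches a dashed line.

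Because a fold change depends on how libraries are scaled to each other, related genes were also set against each other inside each library, where scaling cancels. The 5 pairs were chosen after the values of the members had been seen. Kmt2b took 58.7% of the counts of Kmt2b and Kmt2a together in the input (95% Wilson interval 56.9 to 60.4), 76.2% in IP replicate 1 (74.8 to 77.6) and 76.3% in IP replicate 2 (74.9 to 77.7). Its ratio to Kmt2a was thus 2.26-fold and 2.27-fold higher in the IP libraries than in the input. Crebbp took 38.7% of its pair with Ep300 in the input (36.97 to 40.46), 59.1% in IP replicate 1 (57.3 to 60.9) and 60.3% in IP replicate 2 (58.5 to 62.1). Ep300 was the more abundant of the pair in the input, and Crebbp was the more abundant in both IP libraries, by counts and per exon length. The ratio of Crebbp to Ep300 was 2.29-fold and 2.41-fold higher in IP.

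The KMT2C and KMT2D pair and the SETD1 pair moved less. Kmt2d took 69.1% of its pair with Kmt2c in the input (67.1 to 71.0), and 75% (72.8 to 77.1) and 74.4% (72.2 to 76.5) in the IP libraries. Setd1a took 76.7% of its pair with Setd1b in the input (74.9 to 78.4) and 78.7% in IP replicate 1 (76.9 to 80.4), and these intervals overlap. In IP replicate 2 it took 81.6% (79.99 to 83.16). The largest move of the 5 pairs was in one outside the methyltransferases, Kdm6b beside Kdm6a (UTX), the related H3K27 demethylase that sits in the KMT2C and KMT2D complexes. Kdm6a fell from an input count of 1743 to 596 and 603 after IP, or by 1.58 ± 0.11 (SE) on the log2 scale with edgeR adjusted p = 5.14e-15. Kdm6b took 61.2% of this pair in the input (59.2 to 63.2), and 87.3% (85.9 to 88.6) and 87.2% (85.8 to 88.5) in the IP libraries, so that its ratio to Kdm6a was 4.35-fold and 4.31-fold higher in IP. Scaling cancels in these shares but base composition does not. With the GC trend removed, the difference of the fitted log2 fold changes fell from 2.11 to 1.10 for Kdm6b and Kdm6a and turned from 0.40 to −0.22 for Kmt2d and Kmt2c. With 2 IP libraries against 1 input, the smallest p-value an exact one-sided permutation test of such a share can give is 0.333, so these differences stand as values without a test.

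**Figure D3:**
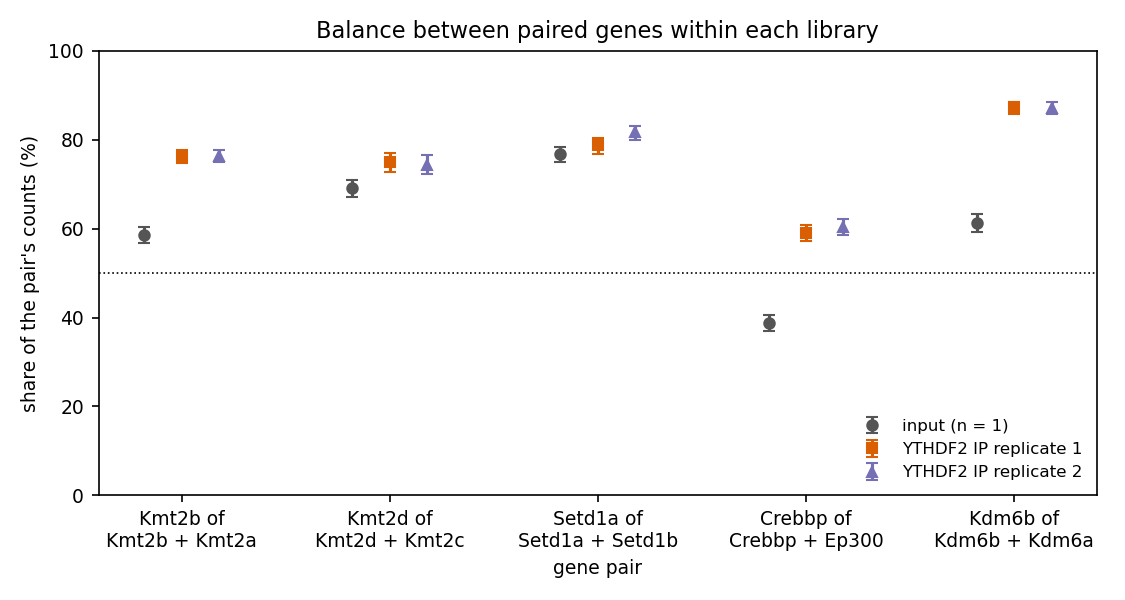
Share of the counts of 2 paired genes taken by the first of them (vertical axis, percent), for the input and each IP library, with 95% Wilson intervals on halved counts. The share of Crebbp crosses the dotted line at 50% between input and IP, and those of Kmt2b and Kdm6b rise in both IP libraries, while that of Setd1a changes least.

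To set levels of different genes side by side, counts were divided by exonic length as well (RPKM, counts scaled to exon length and library total). In the input Setd1a was the most abundant, at 15.4 RPKM, followed by Ep300 at 11.3, Kmt2b at 10.4, Kdm6b at 7.42 and Crebbp at 5.80. Kmt2a, at 3.87 RPKM, Kmt2d, at 3.58, and Setd1b, at 3.08, were lower, and Kmt2c was the least abundant at 2.14. In the IP libraries Kmt2b (17.1 and 17.5 RPKM) and Setd1a (15.3 and 17.7) came first, and their order differed between the 2 libraries. Kdm6b (11.6 and 11.4) and Crebbp (9.12 and 8.71) came next, ahead of Ep300 (7.76 and 7.04). Kmt2d (2.94 and 2.89), Kmt2a (2.81 and 2.85) and Setd1b (2.73 and 2.62) lay close together, and Kmt2c was again last (1.31 and 1.33).

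All 9 transcripts are long, between 5934 and 22866 bases of merged exons, where the median of the tested genes was 3200. They are also made of many exons, from 17 in Setd1b to 62 in Kmt2c after merging. Per kilobase this was between 1.89 and 4.18 exons, on either side of the tested median of 2.45. The transcripts that rose and those that fell were not separated by length. Crebbp and Ep300 have 31 merged exons each, and the longest exon held 45.03% of the exonic bases of Crebbp and 37.3% of those of Ep300. In Kmt2b, by contrast, the longest exon held 23.0%, and in Kmt2c 11.5%.

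GC content spread the 9 more widely. It was 60.0% in Kdm6b, 59.7% in Kmt2b, 59.3% in Setd1b, 57.9% in Kmt2d and 57.1% in Setd1a, all high among tested genes, whose median was 49.6%. Crebbp was at 51.8%, Kmt2a at 50.7%, Ep300 at 48.9% and Kmt2c at 46.7%. Across the 18636 tested genes with a value, which are not independent replicates, log2 fold change and GC content had a Spearman rho of 0.31. Genes with a GC content from 55 to 60% had a median log2 fold change of 0.35 and those from 45 to 50% a median of −0.13. Setd1b, Kmt2d and Setd1a therefore lay below genes of like base composition, whereas Kmt2b and Kdm6b lay close to them.

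When this trend was removed, 3 calls changed, those of Kmt2b and Kdm6b as given above and that of Setd1a. Setd1a moved from 0.0011 to −0.36 (edgeR adjusted p = 0.000168). Crebbp stayed higher, at 0.40 (adjusted p = 3.21e-05), so that it was the only one of the 9 higher in IP in that alternative. Ep300 was at −0.65, Kmt2a at −0.62, Kmt2c at −0.60, Kmt2d at −0.81 and Setd1b at −0.84, each with an adjusted p-value of at most 2.58e-05. The difference of Crebbp and Ep300 on the log2 scale was between 1.05 and 1.27 over 14 alternatives. That of Kmt2b and Kmt2a was between 0.68, with the GC trend removed, and 1.45, with a trend on exon density removed. Whether base composition or a feature that goes with it moved these reads was not tested.

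**Figure D4:**
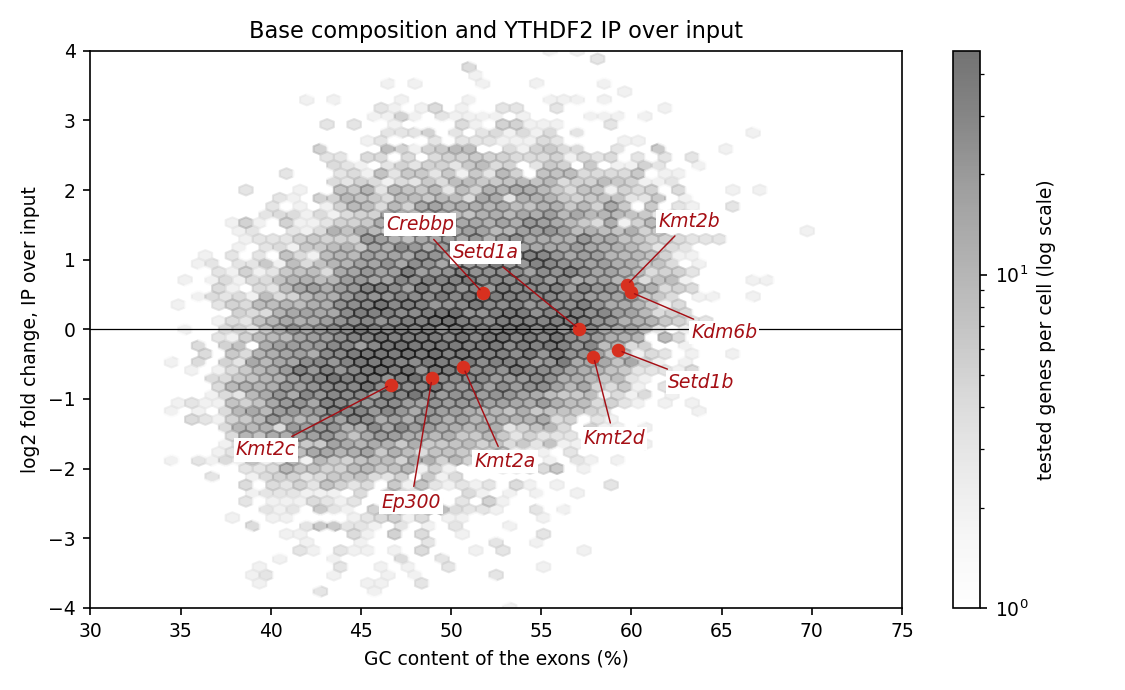
GC content of the exons (horizontal axis, percent) and log2 fold change of IP over input (vertical axis) for all tested genes with a value, in grey by number of genes, with the 9 genes in red. The grey cloud rises to the right, Kmt2b and Kdm6b lie within it at 59.7% and 60.0% GC, and Setd1b and Kmt2d lie below its middle at their GC content. The 417 genes beyond the axes are not drawn.

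YTHDF2 reads m6A, which is most often laid down in GGACT, so the sites of these letters were located in the exons of the 9 genes. Shown here is the GGACT in the coding sequence that lies nearest upstream of the stop codon, a part of mRNA where m6A tends to gather, for the 2 pairs that split and for Kdm6b. Each is given in the sense of the mRNA as DNA letters from GRCm38.p6 (mm10), with GGACT in capitals and 10 bases of coding sequence on either side.
Kmt2b: cccacctcctGGACTctgcccccag
Kmt2a: gcccaagaaaGGACTcgtttttgaa
Crebbp: ccctcaccctGGACTcgcagtcacc
Ep300: cacggacctgGGACTgagcagcgat
Kdm6b: attaatgcagGGACTgtacattggg

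The Crebbp site (chr16:4084207-4084231, minus strand) lies in exon 31 of 31, 166 bases before the stop codon, and the Ep300 site (chr15:81650907-81650931, plus strand) in exon 31 of 31, 58 bases before it. The Kmt2b site (chr7:30574581-30574605, minus strand) is in exon 28 of 37, 1452 bases of coding sequence before the stop codon. The Kmt2a site (chr9:44814621-44814645, minus strand) is in exon 30 of 36, 901 bases before it, and the Kdm6b site (chr11:69401047-69401071, minus strand) in exon 20 of 24, 525 bases before it. A pair that parted in IP, Crebbp and Ep300, thus shares a GGACT in its last coding exon. Only the sense strand was searched, and a match does not show that the base is methylated or bound.

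All 9 coding sequences held GGACT, as did the exons of 88.1% of tested genes and 99.8% of the 3885 tested genes at least as long as the shortest of the 9. Per kilobase of exon, Kmt2b had 2.26 GGACT, at the 93.1st percentile of tested genes, Setd1b 1.66 and Crebbp 1.39, where the tested median was 1.01. Kmt2a had 1.13 and Ep300 1.02, while Kdm6b (0.90), Kmt2d (0.83), Kmt2c (0.82) and Setd1a (0.67) were under the median. The shorter GGAC, which every GGACT contains, was densest in Setd1b at 7.54 per kilobase, the 95.5th percentile, and Kmt2b had 5.87. Members above the GGACT median were higher (Kmt2b, Crebbp) and lower (Setd1b, Kmt2a, Ep300) in IP, and so were members below it (Kdm6b higher, Kmt2c and Kmt2d lower). Across tested genes the Spearman rho of log2 fold change and GGACT density was 0.14.

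Some of these genes share exonic bases with a neighbouring gene. Exons of Kmt2a overlap those of Gm39326 on the other strand over 504 bases (3.00% of its exonic length), those of Kmt2b overlap Gm32082 over 278 bases (3.14%), and those of Kdm6b overlap Gm51903 over 147 bases (1.47%). Gm39326 was counted 24 times at input and 5 times and 1 time after IP, Gm32082 had 0 in all 3 and Gm51903 had 1, 0 and 0. Strand was not used in the counting, so reads of such partners would not be told apart. Reads inside the shared bases were not counted on their own, and their effect was not tested. No exonic stretch of 100 bases of 8 of the genes occurred a second time on the main chromosomes. In Kmt2d 63 of 17566 such stretches (0.36%) did. Only exact matches of stretches within a single exon were counted, so copies with scattered differences would be missed. A second place could also lie in the same gene.

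Next, the 9 were set beside 65 other genes of the same chromatin pathway in 8 lists. All 65 were tested, with 19 higher and 30 lower in IP at an adjusted p-value under 0.05 and any fold, and 16 that did not pass, beside 28.4% higher and 28.9% lower among all tested genes. Past 2-fold, 3 were enriched and 7 were depleted, beside 15% and 13% of all tested genes, and their median log2 fold change was −0.18. The median of the 9, at −0.30, was near that of the 65.

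The 4 core subunits that every COMPASS complex shares had 1 gene higher, Wdr5, and 3 lower, with a median of −0.61. Ash2l, which helps to activate the SET domain, was depleted, at −1.15 on the log2 scale with edgeR adjusted p = 2.17e-20. It was no longer past 2-fold with the exon density trend removed (−0.79) and did not pass with a fixed dispersion of 0.1 (adjusted p = 0.128). Among 11 subunits particular to 1 kind of complex, 4 were higher and 6 were lower, with a median of −0.24. Pagr1a, a partner of PAXIP1 in the KMT2C and KMT2D complexes, rose from 1555 counts to 8560 and 8799, the highest value of all 65 at 2.44. Psip1, the chromatin tether of KMT2A and menin, fell from 5217 counts to 1188 and 1196, at −2.17, and Kdm6a has been given above. The subunits of a single complex thus lay on both sides of the input.

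Of 7 further SET domain genes of this type, 1 was higher and 4 were lower, with none past 2-fold and a median of −0.60. With the exon density trend removed 1 was enriched and 1 was depleted. Of 6 H3K4 demethylases, which remove the mark, 0 were higher and 4 were lower at any fold, with a median of −0.40. At an unadjusted p-value none of the 6 was higher either. Kdm1b was the only one of the 6 past 2-fold that also passed the test, at −1.47. Kdm5c, at 0.11, passed as higher under total count scaling, TPM scaling and with the GC or length trend removed (0.15 to 0.26). Of the other 8 histone acetyltransferases, 2 were higher and 6 lower, with a median of −0.56. Kat2a (GCN5) was enriched, at 1.16, while Hat1, which acetylates newly made histone H4, was depleted at −1.48 and Kat7 at −1.01. Of 12 alternatives with a test, Kat7 missed the 2-fold call in 8. Kat2a lost it in 2, with the GC trend removed (0.75) and with a fixed dispersion of 0.1 (adjusted p = 0.166). Hat1 lost it in 2 as well, with the GC trend (−0.86) or the exon density trend (−0.97) removed. The median of all tested genes was 0.10 under total count scaling and 0.16 under TPM scaling.

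The 11 histone deacetylases, which reverse acetylation, had 1 gene higher, 3 lower and 7 that did not pass, with a median of −0.31. With the exon density trend removed 5 were higher, and with the GC trend removed 5 were lower, with Hdac1, which has no value of either feature here, left without a correction of its own. Hdac1 fell from an input count of 9705 to 1974 and 2133, at −2.28, the lowest of the 65. Its close paralog Hdac2 was at −0.32. The 4 BET proteins, which read acetylated lysine, had 2 higher and none lower, with a median of 0.14, and no unadjusted p-value under 0.05 among those below 0. Under total count or TPM scaling 3 were higher, as also without a filter on low counts and in the fit on genes averaging at least 100 counts. The 14 other histone lysine methyltransferases had the highest median of the 8 lists, 0.43, with 8 higher and 4 lower, and Suv39h2, an H3K9 methyltransferase, was enriched at 1.18 and did not pass with a fixed dispersion of 0.1 (adjusted p = 0.160). Of these 14, 2 were lower under total count scaling, TPM scaling, DESeq2 and with the exon density trend removed. By the 2 log2 ratios to the input, the genes among the 60 with at least 100 counts whose pattern lay nearest to the medians of the 9 were Brdt, Hdac2 and Kmt5b, at Euclidean distances of 0.053, 0.066 and 0.067. Over all 12620 genes with that many counts, 118 lay as near as Brdt, so the likeness in 2 IP libraries is not particular to any of them.

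**Figure D5:**
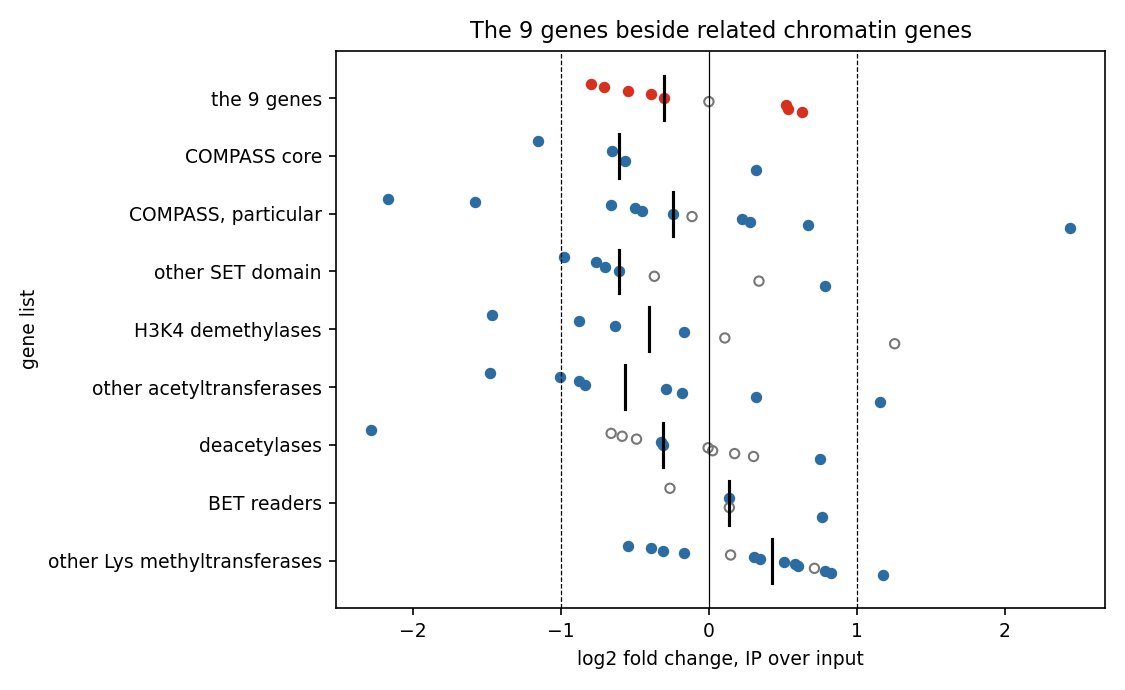
Log2 fold change of IP over input (horizontal axis) for the 9 genes (red) and the 8 lists of related chromatin genes (blue), 1 point per gene. Open points did not pass an adjusted p-value of 0.05, black bars are medians and dashed lines mark 2-fold. The 9 genes lie within the dashed lines, with 3 to the right of 0, while Pagr1a at 2.44 and Hdac1 at −2.28 lie far outside them.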

How the data were processed

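RIP-seq libraries of Dox-treated E14 ESCs, 1 input and 2 YTHDF2 IP, were grouped by their titles. Per the methods of the study, lysate was cleared and RNA recovered with anti-YTHDF2, while the labels describe Trizol-extracted RNA used in the IP. Per the submitters' processing notes, fastp 0.19.4 and HISAT2 2.2.1 were used with mm10. The deposited values are raw counts per gene that the authors made with featureCounts 2.0.3, per the file headers, over RefSeq exons without strand. Each mate was counted on its own. Even numbers made up 61.4% to 64.7% of counts from 1 to 100. The file headers give exonic length beside the counts. The authors named DESeq2 for their own calls. The table held 0 columns of other samples and 0 rows without a gene name.

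Genes were filtered with filterByExpr in edgeR 4.0.16 (R 4.3.3) and scaled by TMM (factors 0.957, 1.02 and 1.02). The model was fitted with estimateDisp and glmQLFit, both robust. IP was tested against input with glmQLFTest over all 19601 genes with Benjamini-Hochberg adjustment. There is 1 residual degree of freedom, from the IP libraries, and the common dispersion was 0.00538. SEs were derived from the F statistic. Ratios of single libraries used 0.5 added to each count. Enriched and depleted mean a fold over 2 with adjusted p below 0.05. The floor of 3 counts was at most 0.0851 CPM. GC content, exons and GGACT were read from GRCm38.p6 for 47591 genes on main chromosomes, with overlapping exons merged and coding sequence from the RefSeq transcript with the longest one. The test was checked on simulated counts. DESeq2 was 1.42.0. Alternatives covered scaling, filter, dispersion, halved counts, trends on GC, length and exon density, and each IP library alone. The fixed dispersion of 0.1 was used with glmFit and glmLRT, the likelihood ratio test of edgeR, in place of the quasi-likelihood test. Tested genes without a GC or exon value (Brd2, Hdac1, Men1, Kdm5a and Ehmt2 among the lists) got no correction of their own, so GC and exon density alternatives of the BET list were not used. The 9 genes and the lists were chosen with earlier results of these data known. In each list, the genes named were those enriched or depleted whose counts averaged 100 or more, up to 2 per direction. Kdm6a and Hdac2 were also set beside their paralogs, and Wdr5 and Kdm5c named, after values were seen.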

Additional observations from a re-analysis of the deposited data

How the results depend on the processing

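No paired analysis was possible because there was 1 input, whose label has no number to tie it to an IP replicate. The lack of a second input limits every value here. A dispersion fixed at 0.1 in place of the estimated one, with the likelihood ratio test, left 0 of the 9 genes past an adjusted p-value of 0.05. On the log2 scale Kmt2a was then at −0.55, Kmt2b at 0.63, Kmt2c at −0.79, Kmt2d at −0.39 and Setd1b at −0.30. Crebbp was at 0.52, Ep300 at −0.71 and Kdm6b at 0.53. This alternative gave 1577 genes higher and 1531 lower over all tested genes, all of them past 2-fold. The reported fit had 2936 enriched and 2543 depleted (5557 higher and 5660 lower at any fold). With the GC trend removed, 1 of the 9 was higher, Kmt2b was at 0.056, Setd1a at −0.36 and Kdm6b at −0.061, and the median of the 9 was −0.60. Setd1b lost its call, at −0.20 with total count scaling, −0.15 with TPM scaling, −0.28 with the DESeq2 Wald test, −0.28 without a filter on low counts and −0.24 with the length trend removed. The median of the 9 was −0.20 with total count scaling, −0.15 with TPM scaling, −0.24 with the length trend removed and −0.39 with the exon density trend removed. The cause of these changes was not tested. In each IP library alone the 8 genes other than Setd1a kept their sign, and 0 of the 9 passed 2-fold in any of the 14 alternatives.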
